A study of Mus musculus with 6 samples.

Results

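The 10 genes followed here respond to the ERK pathway, most of them as brakes on it, and were measured in the 6 RNA-seq libraries of a mouse kidney injury study. They are the dual-specificity phosphatase genes Dusp1, Dusp4, Dusp5 and Dusp6, the Sprouty genes Spry1, Spry2 and Spry4, the related Spred1, and the ETS transcription factor genes Etv4 and Etv5. They were chosen by symbol, and all 10 had a row among the 25189 gene symbols of the table. The samples carry the label kidney tissue, from male C57BL/6 mice of WT (wild-type) genotype on day 2. All 6 had I/R, that is ischaemia and reperfusion, in which the blood supply is interrupted and then let back in. One group of 3 libraries had I/R alone. The other 3 also received chemerin-9, labelled C9, a peptide agonist of the chemerin receptor that copies the carboxyl end of the parent protein. No uninjured kidney was among the samples, so the comparison shows what went with chemerin-9 in injured samples and not what the injury did.

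Several limits of the groups bear on every value below. The treated columns of the count table are headed IC, taken here to stand for I/R plus C9. For these samples the labels give S-1 to S-3 as column names, which this table does not hold, so the headers do not match by name, and every direction given for chemerin-9 rests on that reading. The treated samples are titled C9 throughout but their treatment field counts up from C9 to C10 and C11, and grouping used the titles. Whether the libraries stem from separate mice is not in the labels, so p-values reflect only how these libraries vary, and that variation may be technical. Each library carries a batch value of its own, so an effect of batch and one of treatment cannot be told apart. The libraries held 11217252 to 16938301 counts. Libraries of one group differed from each other by a chi-square per degree of freedom of 1.82 to 6.16, the 2 highest values being those of I/R replicate 3, against 27.7 to 39.9 between the groups. Most defining markers of the labelled tissue were near the floor. Lrp2 of the proximal tubule was measured in CPM (counts scaled to the library size) at 3.19 ± 0.531 without and 3.37 ± 0.747 with chemerin-9 (SD over 3 libraries), and Aqp2 of the collecting duct at 0.0926 ± 0.0821 and 0.107 ± 0.0938 CPM. Of the nephron list, Aqp1 (18.2 ± 0.201 and 17.7 ± 2.05 CPM) and Pax8 (45.5 ± 1.65 and 29.6 ± 3.17 CPM), genes not confined to the nephron, were not. The 10 cell division genes used as markers were abundant in contrast, with a median of 209 to 225 CPM in each library. These values go against the label kidney tissue, so the libraries may hold other material, and the values below describe the libraries as labelled.

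Growth factor receptors switch on RAS, which passes the signal through the kinases RAF, MEK and ERK to the nucleus. ERK activity then induces its own brakes. DUSP proteins remove the phosphates that keep MAP kinases active, Sprouty and Spred proteins act further up at the level of receptors, RAS and RAF, and the PEA3 factors Etv4 and Etv5 carry the signal on to other genes. Because their transcripts follow the pathway, several of these genes are widely used as readouts of ERK signalling. In the developing kidney Spry1 restrains the GDNF and Ret signal that drives branching of the ureteric bud, and Etv4 and Etv5 act downstream of that signal.

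The feedback genes did not move as a block. With chemerin-9, Spry4, Etv4, Etv5, Spred1 and Dusp6 were higher, Dusp1 and Dusp4 were lower, and Dusp5, Spry1 and Spry2 did not pass the test. All 10 genes were among the 14184 tested with edgeR's quasi-likelihood test, where a gene passed at a Benjamini-Hochberg adjusted p under 0.05 over all tested genes. Thus 7 of 10 passed, 5 higher and 2 lower, beside 51.7% of all tested genes, with 25.6% higher and 26.1% lower. With libraries scaled by their size alone, the higher share among all passing genes went from 49.6% to 60.7%. The groups did not overlap in 7 of the 10, 5 higher and 2 lower, beside 58.5% of all tested genes, with 29.3% higher and 29.2% lower. The median log2 fold change of the 10 was 0.30, beside -0.0037 for all tested genes. With so many genes passing across the whole table, the counts alone do not set these genes apart, and the sizes of the single changes carry the description.

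**Figure D1:**
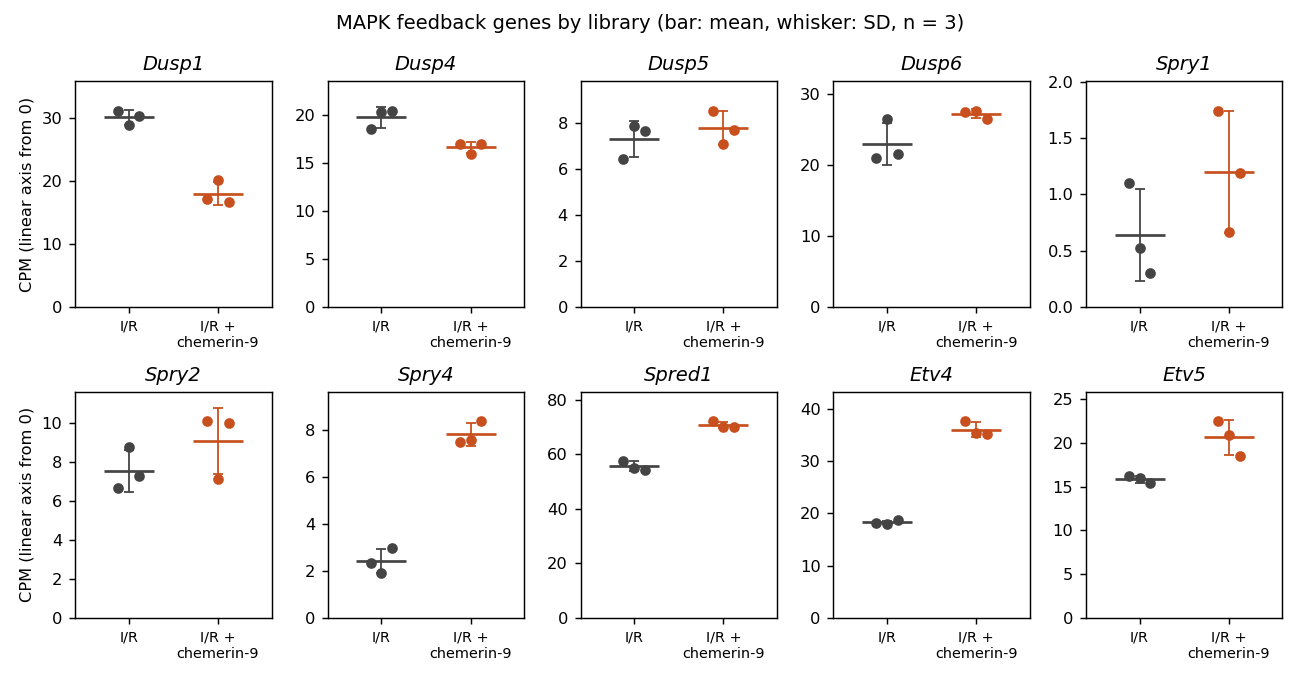
Level of each MAPK feedback gene in CPM on a linear axis from 0, by group. Each point is 1 library, the bar is the mean and the whisker the SD over 3 libraries. Spry4 and Etv4 lie clearly above I/R in all 3 chemerin-9 libraries and Dusp1 clearly below, while the points of Dusp5, Spry1 and Spry2 overlap between the groups.

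The promoters of a few members are shown as a description of sequence. Their part in the differing directions of the phosphatase genes was not tested, and no promoter window was found for Dusp4. RefSeq windows from 250 bases before to 50 bases after the start site (build GRCm38.p6) were found for 7 of the 10 genes, namely Dusp1, Dusp5, Dusp6, Spry1, Spry2, Spred1 and Etv5. Several motifs linked to signal-regulated transcription were searched on both strands: the cyclic AMP response element TGACGTCA, the AP-1 site TGANTCA, the ETS site CCGGAAG and the CArG box of serum response factor. Only bases upstream of every annotated exon are printed for Dusp1 (chr17:26508520-26508722, minus strand), Dusp6 (chr10:99262981-99263230, plus strand) and Spred1 (chr2:117120821-117121070, plus strand). For Dusp5, 30 bases around its CArG boxes are printed (chr19:53529058-53529087, plus strand), without a check against annotated exons. Capitals mark the motif matches.
Dusp1: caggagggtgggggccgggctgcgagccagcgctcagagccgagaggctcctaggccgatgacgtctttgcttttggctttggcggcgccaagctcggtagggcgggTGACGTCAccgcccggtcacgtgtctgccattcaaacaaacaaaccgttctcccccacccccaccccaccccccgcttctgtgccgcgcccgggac
Dusp5: aatacCCATATTTGGCCTTATATGGgcact
Dusp6: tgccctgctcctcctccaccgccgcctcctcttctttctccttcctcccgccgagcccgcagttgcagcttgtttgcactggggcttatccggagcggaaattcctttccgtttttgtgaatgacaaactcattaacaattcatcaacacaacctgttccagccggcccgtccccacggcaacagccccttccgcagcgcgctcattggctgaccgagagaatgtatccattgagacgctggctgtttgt
Spred1: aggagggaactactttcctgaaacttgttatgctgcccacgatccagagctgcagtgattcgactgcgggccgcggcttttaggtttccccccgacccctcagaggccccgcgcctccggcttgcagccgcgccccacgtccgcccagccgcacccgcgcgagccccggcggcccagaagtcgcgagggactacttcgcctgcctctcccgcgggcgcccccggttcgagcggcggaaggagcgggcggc

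The window of Dusp1 held 1 full cyclic AMP response element, starting at position -143 from the RefSeq start site, a motif found in 1.79% of 32851 promoter windows. The window of Dusp5 held 2 adjoining CArG boxes, which do not overlap each other, at positions -82 and -72. Of all windows 1.63% held a CArG box, 7.81% the AP-1 letters and 8.86% the ETS letters. The searched letters were not found in the windows of Dusp6, Spred1, Spry1, Spry2 or Etv5. A match describes the letters of the window and shows no binding.

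Among the nuclear phosphatases, which act on MAP kinases in the nucleus, Dusp1 fell and carried the largest decrease of the 10 genes. Dusp1 (chromosome 17, 26505590 to 26508519, minus strand, mm10, ENSMUSG00000024190) encodes an inducible phosphatase of p38, JNK and ERK. Its level was 31.2, 28.8 and 30.3 CPM in the I/R libraries and 17.1, 20.1 and 16.7 CPM in those with chemerin-9. Every treated library lay below every I/R library. The mean went from 30.1 ± 1.178 to 17.97 ± 1.87 CPM (SD, n = 3 each), a log2 fold change of -0.74 with a standard error of 0.09 (edgeR adjusted p = 5.9e-06). At least 6.7% of the tested genes changed as much in either direction, the share at the larger change of Etv4.

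Dusp4, the nuclear phosphatase induced by ERK (chromosome 8, 34807297 to 34819894, plus strand), fell slightly. It was at 18.6, 20.4 and 20.5 CPM in I/R and at 16.99, 15.99 and 16.997 CPM with chemerin-9. The groups did not overlap, but the gap between them was small, and the log2 fold change was -0.25 with a standard error of 0.09 (edgeR adjusted p = 0.0297). The Dusp4 call ended with DESeq2 (adjusted p = 0.087), with library size alone (0.10), after correction for GC and length (0.12), and without I/R replicate 2 (0.076), I/R replicate 3 (0.075), chemerin-9 replicate 2 (0.092) or chemerin-9 replicate 3 (0.052). In the authors' deposited table its adjusted p was 0.117.

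Dusp5, a nuclear phosphatase selective for ERK (chromosome 19, 53529109 to 53542431, plus strand), was at 6.42, 7.88 and 7.65 CPM in I/R and at 8.54, 7.07 and 7.69 CPM with chemerin-9. The groups overlapped. Its log2 fold change of 0.079 had a 95% interval of -0.22 to 0.38, so neither a small rise nor a small fall could be told from no change (edgeR adjusted p = 0.669). An antisense gene covers 22.1% of the exon length of Dusp5. The sources used here do not give the strand setting of the counting, so over that stretch its reads and those of Dusp5 cannot be told apart.

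Dusp6 encodes the cytoplasmic phosphatase that acts selectively on ERK, and it went the opposite way to Dusp1 and Dusp4. At chromosome 10, 99263231 to 99267489 (plus strand), it had 21.1, 26.4 and 21.6 CPM in I/R and 27.5, 27.7 and 26.5 CPM with chemerin-9. I/R replicate 2 lay only just below the lowest treated library, so the groups did not overlap but nearly touched. The log2 fold change was 0.24 with a standard error of 0.09 (edgeR adjusted p = 0.0376). This call was fragile. It ended with DESeq2 (adjusted p = 0.068) and without any library other than I/R replicate 2 (0.068 to 0.14), and the deposited table of the authors gives an adjusted p of 0.106.

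Taken as a sum, the 4 phosphatases were lower in every treated library, but not each of them was. From I/R to chemerin-9, the mean CPM per kilobase of Dusp1 went from 9.09 to 5.43 and that of Dusp4 from 7.23 to 6.08. Dusp5 went from 2.96 to 3.14 and Dusp6 from 7.36 to 8.70. Summed over the 4, the level in CPM per kilobase was 25.5, 27.8 and 26.6 in I/R and 23.6, 23.6 and 22.8 with chemerin-9. All treated libraries lay below all I/R libraries, which gives p = 0.1 in a two-sided exact permutation test, the smallest value that 3 against 3 libraries allow. Such a p, here and for the sums and shares below, only restates that the groups did not overlap. In CPM that held for 58.5% of all tested genes. Dusp1 held 34.2% ± 2.78 of that sum in I/R and 23.2% ± 2.16 with chemerin-9, and Dusp6 held 27.6% ± 2.48 and 37.3% ± 0.189 (SD, n = 3 each; exact permutation p = 0.1 for each share). A share also depends on the other genes of its sum, so the shares of Dusp1 and Dusp6 are not independent. In I/R Dusp1 was the most abundant of the 4 by mean, and with chemerin-9 Dusp6 was.

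**Figure D2:**
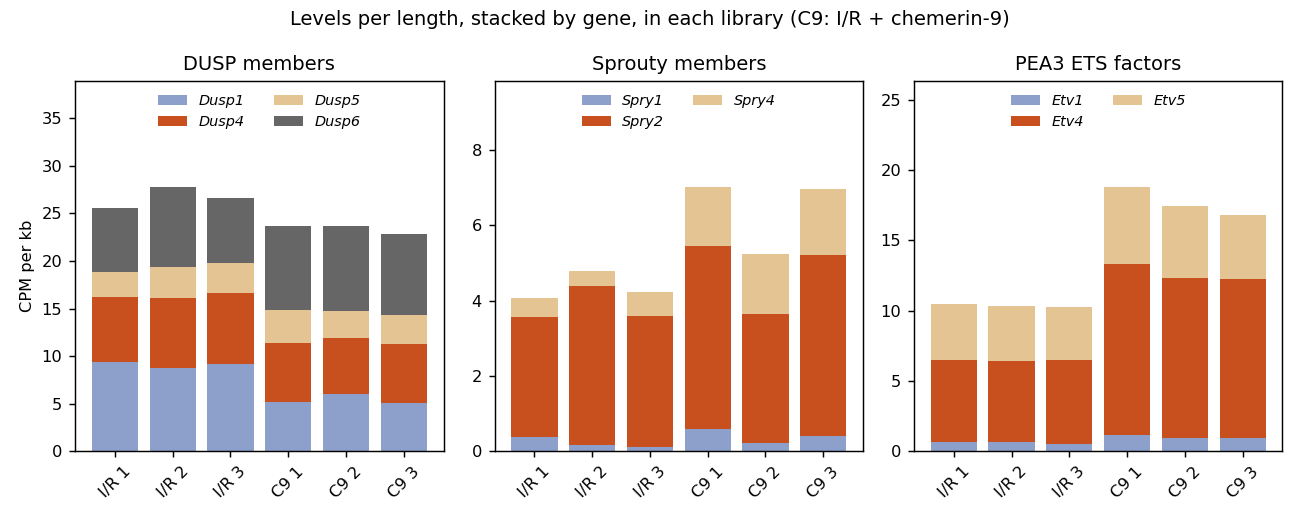
CPM per kilobase in each library, stacked by gene, for the 4 DUSP members, the 3 Sprouty members and the PEA3 factors (Etv1 is not one of the 10 genes). The DUSP stack and its Dusp1 segment are lower in all 3 treated libraries, and the Sprouty and PEA3 stacks are higher in all 3 treated libraries.

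Of the Sprouty genes, which encode membrane-associated inhibitors of receptor signalling, Spry4 rose most in relative terms of all 10 genes. Spry4 (chromosome 18, 38586268 to 38601268, minus strand) was at 2.35, 1.93 and 2.97 CPM in I/R and at 7.49, 7.59 and 8.39 CPM with chemerin-9. The lowest treated library was over the highest I/R library by more than the range within either group. From 2.42 ± 0.524 to 7.83 ± 0.494 CPM (SD, n = 3 each), the change was 3.20-fold, or 1.68 on the log2 scale with a standard error of 0.19 (edgeR adjusted p = 2.7e-06). A change at least this large in either direction was found in 1.36% of the tested genes. The counts behind it were 26 to 49 per library in I/R and 86 to 120 in the treated group. Without each library in turn the log2 fold change ranged from 1.54 to 1.87.

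Spry2 (chromosome 14, 105891947 to 105896819, minus strand), the most abundant Sprouty gene here, was at 6.65, 8.77 and 7.28 CPM in I/R and at 10.1, 7.15 and 10.002 CPM with chemerin-9. Chemerin-9 replicate 2 lay within the I/R range while the other two treated libraries lay above it. Its log2 fold change of 0.26 (standard error 0.16) did not pass (edgeR adjusted p = 0.19), and without chemerin-9 replicate 2 it was 0.41 and passed (adjusted p = 0.047). Spry1 (chromosome 3, 37639947 to 37644598, plus strand) had only 5 to 20 counts per library, which gave 1.10, 0.520 and 0.303 CPM in I/R and 1.74, 0.663 and 1.19 CPM with chemerin-9. Its groups overlapped. The log2 fold change was 0.93 with a 95% interval of -0.11 to 1.96 (edgeR adjusted p = 0.125), so at this depth no change and a change as large as that of Spry4 were both within its interval. Single libraries moved it widely, to 1.53 without I/R replicate 1 (adjusted p = 0.033, the only omission with which it passed), 0.55 without I/R replicate 3 (0.36) and 0.58 without chemerin-9 replicate 1 (0.42). An opposite-strand transcript model covers 24.4% of the exon length of Spry1, which makes its low counts less certain still.

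Summed per length, the 3 Sprouty genes went from 4.35 ± 0.382 to 6.41 ± 1.01 CPM per kilobase (SD, n = 3 each; exact permutation p = 0.1). Spry2 held 83.0% ± 4.62 of the sum in I/R and 67.7% ± 2.11 with chemerin-9. Spry4 held 11.8% ± 3.18 and 26.1% ± 4.03. The steep rise of Spry4 thus started from a small share, and Spry2 remained the main Sprouty transcript in all 6 libraries.

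Spred1, a Sprouty-related protein that brings neurofibromin to the membrane to switch RAS off, rose modestly and with little spread. At chromosome 2, 117121374 to 117182279 (plus strand), it was at 57.5, 55.1 and 54.01 CPM in I/R and at 72.1, 70.1 and 69.8 CPM with chemerin-9. The groups were well separated. The log2 fold change was 0.35 with a standard error of 0.05 (edgeR adjusted p = 4.1e-05). After correction for a trend on GC content and on transcript length it was 0.21 and still passed (adjusted p = 0.0014). Spred1 has the lowest GC content of the 10 genes, 41.2% in its longest transcript.

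Both ETS members of the PEA3 group rose. Etv4 (chromosome 11, 101769742 to 101785371, minus strand, ENSMUSG00000017724) was at 18.2, 17.98 and 18.6 CPM in I/R and at 37.6, 35.3 and 35.2 CPM with chemerin-9. It had the smallest spread within I/R of the 10 genes, with a coefficient of variation of 1.79%, and the groups lay far apart. Etv4 went from 18.3 ± 0.327 to 36.04 ± 1.39 CPM (SD, n = 3 each), a 1.97-fold rise, or 0.98 on the log2 scale with a standard error of 0.07 (edgeR adjusted p = 5.7e-08). Of the tested genes, 6.7% changed at least as much in either direction. Its log2 fold change stayed between 0.94 and 1.09 under the 19 alternatives run.

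Etv5 (chromosome 16, 22381309 to 22439719, minus strand), the close relative of Etv4, was at 16.2, 15.97 and 15.4 CPM in I/R and at 22.5, 20.9 and 18.5 CPM with chemerin-9. The treated libraries spread more than those of I/R, yet all 3 lay above them. The log2 fold change was 0.38 with a standard error of 0.10 (edgeR adjusted p = 0.0043). The 95% intervals of the log2 fold changes of Etv4 (0.82 to 1.14) and Etv5 (0.17 to 0.58) did not meet. Etv1, the third PEA3 factor and no member of the 10, rose as well, by 0.79 on the log2 scale (edgeR adjusted p = 2.3e-04). Etv4 held 56.9% ± 1.41 of the summed PEA3 level per length in I/R and 65.7% ± 1.57 with chemerin-9, and the sum went from 10.4 ± 0.111 to 17.7 ± 1.02 CPM per kilobase (SD, n = 3 each; exact permutation p = 0.1 for both).

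**Figure D3:**
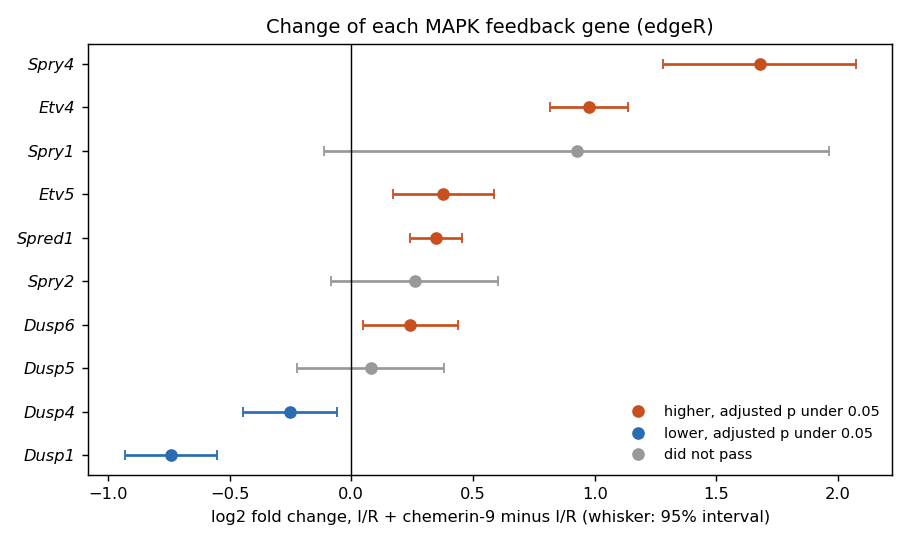
Log2 fold change of each of the 10 genes, chemerin-9 with I/R minus I/R alone, with a whisker for the 95% interval. Spry4 (1.68) and Etv4 (0.98) stand at the high end and Dusp1 (-0.74) at the low end, and the whiskers of Dusp5, Spry1 and Spry2 cross 0.

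The order of the levels changed with these shifts. Per length, Dusp1 led in I/R at 9.09 ± 0.356 CPM per kilobase, followed by Spred1 (8.19 ± 0.268), Dusp6 (7.36 ± 0.947), Dusp4 (7.23 ± 0.397), Etv4 (5.89 ± 0.105), Etv5 (3.87 ± 0.0992), Spry2 (3.63 ± 0.520), Dusp5 (2.96 ± 0.317), Spry4 (0.509 ± 0.110) and Spry1 (0.220 ± 0.141). Spred1 and Dusp6, Dusp6 and Dusp4, and Etv5 and Spry2 overlapped in their libraries. With chemerin-9 Etv4 led at 11.6 ± 0.448, ahead of Spred1 (10.4 ± 0.182) and Dusp6 (8.70 ± 0.207), with no overlap between these neighbours. Dusp4 (6.08 ± 0.212), Dusp1 (5.43 ± 0.564), Etv5 (5.03 ± 0.485), Spry2 (4.35 ± 0.805) and Dusp5 (3.14 ± 0.298) followed, each overlapping the next, and Spry4 (1.65 ± 0.104) and Spry1 (0.412 ± 0.186) were again the lowest. In bulk RNA, fewer cells of a type and less RNA per cell cannot be told apart. Of 12 fibroblast and matrix genes listed, 10 had a row. Their sum differed between the groups, at 5029 to 5128 CPM in I/R and 4224 to 4330 CPM in the treated libraries. Their directions were mixed. By edgeR 2 of the 9 tested rose and 4 fell, or 66.7% beside 51.7% of all tested genes. Col3a1 and Pdgfrb rose by 0.45 and 0.49 on the log2 scale, and the abundant Fn1 fell by 0.13. The sum of the 10 cell division genes was 4178 to 4341 CPM in I/R and 3966 to 4069 CPM in the treated libraries, with 4 genes lower and 0 higher (40% passing). In the nephron list 10 of 19 genes had a row. They summed to 70.5 to 73.4 CPM in I/R and 50.996 to 59.7 CPM in the treated group. Of the 5 nephron genes tested only 1 passed with edgeR. It was Pax8, the most abundant of them, which fell from 45.5 ± 1.65 to 29.6 ± 3.17 CPM (SD, n = 3 each) and is not confined to the nephron. Cdh16 had 2 to 4 counts per library in I/R and 0 in the treated group. The 5 endothelial genes with a row, of 7, summed to 1.71 to 2.61 and 3.01 to 4.42 CPM, and the 3 leukocyte genes with a row, of 9, to 4.31 to 6.02 and 4.36 to 6.57 CPM. The 3 red blood cell genes with a row, of 5, summed to 1.64 to 3.68 and 2.004 to 3.17 CPM, with Hbb-bs at 0 in all 6 libraries. The part of these cell types in the changes of the feedback genes was not tested.

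The lists of the wider pathway are given as counts, to be read against the 51.7% of all tested genes that passed, 25.6% higher and 26.1% lower, and nothing is read from a count alone. None of the 6 genes listed as other MAP kinase phosphatases passed with edgeR, DESeq2 or limma-voom. With library size alone 2 were higher, 1 was higher without chemerin-9 replicate 3, and 1 was higher and 1 lower after correction for GC and length. This list leaves out further Dusp genes, among them Dusp3, which are given below. By edgeR 1 of the 6 had an unadjusted p under 0.05, Dusp10, which had means of 16.7 ± 1.12 CPM in I/R and 14.3 ± 0.719 CPM in the treated group (log2 fold change -0.23, edgeR adjusted p = 0.063). Dusp7, which like Dusp6 encodes a cytoplasmic phosphatase of ERK, was at 22.3 ± 1.43 and 25.3 ± 2.25 CPM (edgeR adjusted p = 0.11). The table held 11 further Dusp genes outside these lists, looked at after their values were seen. Of the 9 tested, Dusp28 rose by 0.65 and Dusp3 and Dusp18 fell by 0.51 and 0.46 on the log2 scale (edgeR adjusted p = 0.012, 4.1e-06 and 1.1e-05). Of the 13 other tested ETS factors, 3 rose and 6 fell. These make 69.2% passing beside 51.7% of all tested genes, and the list median log2 fold change was -0.0058. With library size alone 6 rose and 4 fell. Among these ETS factors Erf, an ETS repressor that ERK drives out of the nucleus, fell from 39.2 ± 3.42 to 26.4 ± 0.969 CPM. Elf4 and Elf1 fell by 0.44 and 0.32 on the log2 scale. Of 13 further brakes on RAS and ERK, 5 rose and 3 fell, which is 61.5% passing, beside 51.7% of all tested genes. With library size alone 7 rose and 1 fell, and 3 rose after correction for GC and length. The number lower was 1 without I/R replicate 2, chemerin-9 replicate 2 or chemerin-9 replicate 3. Errfi1, a feedback inhibitor of the EGF receptor, rose from 25.7 ± 0.873 to 38.1 ± 1.57 CPM and the RAF inhibitor gene Pebp1 by 0.43 on the log2 scale, while Lztr1, an adaptor for the breakdown of RAS proteins, fell from 88.2 ± 1.36 to 59.1 ± 1.39 CPM.

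In the cascade from RAS to ERK 8 of 25 tested genes rose and 5 fell, or 8 after correction for GC and length, and the median log2 fold change was 0.026. With 13 of 25 genes passing, the share was 52%, beside 51.7% of all tested genes. Mapk3, which encodes ERK1, fell from 123 ± 1.181 to 87.4 ± 4.40 CPM, and Rras fell by 1.05 on the log2 scale. Ptpn11, the phosphatase that relays receptor signals to RAS, rose by 0.36 and Mras by 0.62. Of 14 tested receptor tyrosine kinases 5 rose and 5 fell, or 71.4% beside 51.7% of all tested genes, among them Axl (0.30), Ddr2 (0.32), Met (0.28) and Igf1r (-0.38) by log2 fold change. Of 17 tested growth factor ligands 7 rose and 2 fell, or 52.9%, close to the 51.7% of all tested genes. Hbegf, a ligand of the EGF receptor, rose from 21.9 ± 2.36 to 35.8 ± 1.05 CPM and Nrg1, a ligand of ERBB receptors, from 31.9 ± 1.79 to 50.1 ± 2.67 CPM, Igf1 rose by 3.09 on the log2 scale, and Fgf10 fell from 25.4 ± 1.47 to 14.999 ± 1.74 CPM. These are RNA levels, and phosphorylation of ERK was not measured here.

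Of 27 other tested transcripts that ERK is known to induce, 4 rose and 11 fell, with a median log2 fold change of -0.015. The share passing was 55.6%, beside 51.7% of all tested genes. Ccnd1, the cyclin that carries growth signals into the cell cycle, rose from 33.5 ± 2.83 to 59.6 ± 3.95 CPM. Klf6, Nr4a1 and the gene of serum response factor, Srf, fell by 0.85, 1.17 and 0.49 in log2 terms. In the JNK and p38 cascades, whose kinases Dusp1 switches off, 7 of 19 tested genes rose and 5 fell, or 63.2% beside 51.7% of all tested genes. Map2k4, a kinase that activates JNK, rose from 76.97 ± 1.350 to 124 ± 2.65 CPM, and the JNK scaffold genes Mapk8ip3 and Mapk8ip1 and the p38 gamma gene Mapk12 fell by 0.70, 0.84 and 0.62. Each gene named in these paragraphs on the wider pathway as having risen or fallen had an edgeR adjusted p under 0.05.

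**Figure D4:**
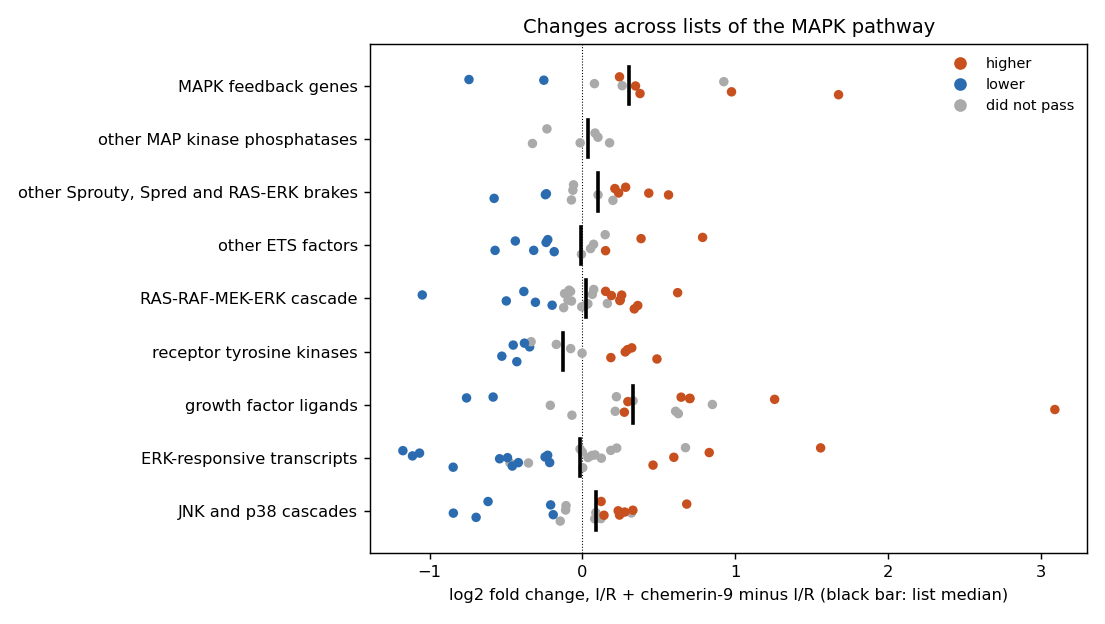
Log2 fold change of every tested gene in each list of the pathway, with the list median as a black bar. Passing genes of both directions appear in every list except the other MAP kinase phosphatases, where no gene passed. That list does not hold every Dusp gene, and Dusp3, which fell, is not in it. The 10 feedback genes have a median of 0.30.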

How the data were processed

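The authors deposited 1 table of raw counts per gene symbol for 6 libraries, beside which stand the authors' own p-value, adjusted p-value, log2 fold change and linear ratio of each gene. The submitters' processing notes name HISAT2, HTSeq, DESeq 1.18.1 and mm10, and the labels' protocols name a Vazyme stranded mRNA kit. The sources used here give neither the annotation nor the strand setting. The build was checked against GENCODE M21 (97.5% of matched genes had the same start). Of 25216 rows, 27 that repeated a symbol were dropped. Values in CPM are counts over the TMM-scaled library size, and levels per length divide these by the M21 exon length.

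Counts were tested with edgeR 4.0.16 (R 4.3.3, with TMM, filterByExpr and quasi-likelihood on group alone). The test was first run on simulated counts in which few genes changed, evenly in both directions. Far more genes passed in these data, so that run cannot vouch for the size factors or the error rate here. A standard error is the log2 fold change over the root of F, and 95% intervals use the t distribution with the test's degrees of freedom. The alternatives were DESeq2 1.42.0, limma-voom (limma 3.58.1), other size factors, other filters, a robust prior, the replicate block, a correction for GC and length, a threshold of 0.1, and leaving out mitochondrial and haemoglobin genes or each library. Copies were searched with BLAST 2.17.0 at 95% identity over 50% of the shorter transcript. Apart from the antisense gene of Dusp5, the search found Gm4798 for Etv5, with at most 2 counts.

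The 10 genes and all lists were chosen with earlier results of these data known. Beyond the 10, the text names up to 4 genes with the smallest p per list, and markers. It also names Dusp28, Dusp3 and Dusp18, which are in no list and were picked after their values were seen.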

Additional observations from a re-analysis of the deposited data

How the results depend on the processing

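Of the 7 genes that passed, Dusp1, Spry4, Spred1, Etv4 and Etv5 kept their direction and an adjusted p under 0.05 under all 19 alternatives. The number of feedback genes that passed lay between 5 and 7, that of higher genes between 4 and 5 and that of all genes between 6312 and 8338. The number of lower genes, 2, was 1 with library size alone, with DESeq2, after correction for GC and length, and after that correction plus the replicate block, and 1 to 2 without each library in turn, in each case through the loss of Dusp4. Same-numbered libraries did not deviate together (correlations of deviations 0.102, -0.052 and 0.042), so the numbers were not treated as pairs, and with the replicate block alone 7 genes passed, 2 of them lower. The log2 fold change of Dusp5, 0.079, ranged from -0.0053 to 0.14 without each library in turn, turning sign without I/R replicate 1 (adjusted p = 0.98). The cause of these shifts was not tested. With at least 10 counts in every library Spry1 was not tested. Depth limits Spry1 most, with 5 to 20 counts per library.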
